A study of Mus musculus with 4 samples.

Results

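The 3 L1210 lines that carried a transcript variant of Fbxw11 were compared as 1 group of 3 with the single L1210-control line. The comparison covered the 33071 of 55681 gene probes on the array that read well above background on each of the 4 arrays. These probes stood for 16254 of the 24561 gene symbols. The parent L1210 cells are a lymphocytic leukemia line from a DBA mouse. Each line was made by lentiviral infection, was sorted for GFP, and gave 1 Agilent 1-colour array, so that the variant group held an array each of L1210-Fbxw11a, of L1210-Fbxw11c and of L1210-Fbxw11d, and the control group 1 array of L1210-control cells. All 4 lines had been infected and sorted, each array is 1 sorted population, and the labels name no agent beyond the variant. The sources used here do not say what the control lentivirus carried.

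Fbxw11, also called β-TrCP2, is an F-box protein that brings phosphorylated proteins to the SCF ubiquitin ligase. Its best known substrates are the IκB proteins, which hold NF-κB in the cytoplasm, and β-catenin, which acts with TCF factors on Wnt target genes. NF-κB in turn drives genes of inflammation and survival, among them several chemokines and its own inhibitor Nfkbia.

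Signals are given in the intensity units of the scanner after every array was scaled to the 75th percentile of L1210-control. A difference is the mean of the 3 variant lines minus the control on the log2 scale, and its standard error (SE) comes from limma. Genes were ranked by limma's moderated statistic, which is that difference over a spread taken from the 3 variant lines and moderated across probes, and the plain ratio of the difference to the SD of the 3 lines was computed beside it. The control had no replicate, so the fit takes it to vary like the variants, and the p-values measure only the spread between the 3 variant arrays. That spread includes any real differences between the variants, and any effect of the separate slide of L1210-Fbxw11d.

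No probe passed an adjusted p of 0.05 in limma (0 of 33071, 0.0%), and the lowest adjusted p was 0.0585. At an adjusted p of 0.10 there were 5 probes (0.0151% of those tested), for Cxcl1, Cxcl2, Nos2, Fam213a and Sema4f, and all 5 were lower in the variant lines. At an unadjusted p of 0.05 limma gave 1279 probes (3.87%), 648 higher (1.96%) and 631 lower (1.91%). The control lay below all 3 variant lines in 4520 genes (27.8%) and above all 3 in 3342 genes (20.6%). By probes these shares were 23.8% and 24.3%, and with arrays centred on their median instead, 11015 probes had the control below all lines and 4523 above. Were the 4 arrays interchangeable, the control would be lowest in 1 of 4 probes and highest in 1 of 4. The shares over all genes or probes therefore do not by themselves show a difference. At least 2-fold in every variant line, 34 genes were higher (0.209% of genes tested) and 75 were lower (0.461%).

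Slide 1 held the control array with those of L1210-Fbxw11a and L1210-Fbxw11c, and L1210-Fbxw11d was hybridised on slide 2. The share of probes well above background ran from 62.5% on the control array to 68.7% on L1210-Fbxw11d. The L1210-Fbxw11d array stood apart in brightness, with a 75th percentile of 952.3 against 621.3 to 672.5 on the other arrays, and after scaling its 10 spike-in probes were -0.579 ± 0.163 (SD, log2) from the control array, against 0.155 ± 0.083 and 0.126 ± 0.146 on L1210-Fbxw11a and L1210-Fbxw11c. Many spots behind the lower genes were uneven on the control array, where the pixels of the spot had an SD over 0.3 of its mean signal. Of the 75 lower genes, 31 (41.3%) had such a spot on the control array, against 0.781% of all genes tested, and 43 of the 75 (57.3%) lay in rows 1 to 96 of the 384 rows of the array, against 24.9% of all genes. On each variant array 2 of the 75 had an uneven spot. None of the 34 higher genes had one on any of the 4 arrays. Without uneven spots 43 of the 75 genes were still lower by at least 2-fold in every line and all 34 were still higher, and that setting was chosen after seeing the data. Of the 44 lower genes with an even control spot 27 lay outside rows 1 to 96, as did 22 of the 34 higher genes. Within slide 1, which leaves out L1210-Fbxw11d, the differences of the 12 genes on each side with the largest statistic were 0.927 to 1.07 times those over all lines, and the lowest adjusted p was 0.384. Genes named for their size alone could move further, such as Bcl2a1d at -3.06 in place of -3.40 and Cck at -2.51 in place of -2.86.

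**Figure D1:**
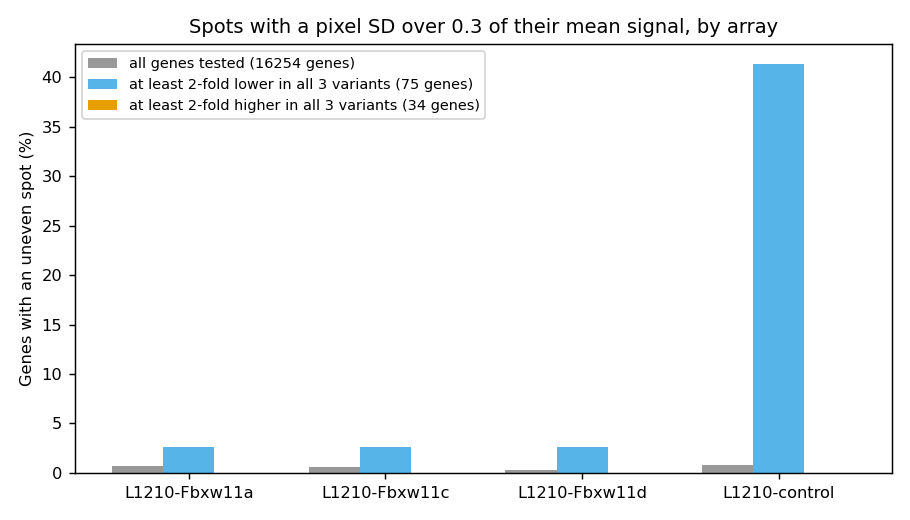
Percent of genes (vertical axis) whose spot had a pixel SD over 0.3 of its mean signal, on each of the 4 arrays (horizontal axis), for all genes tested and for genes at least 2-fold lower or higher in all 3 variant lines. On the control array the bar of the lower genes stands at 41.3% against 0.781% for all genes, and the higher genes have no bar because none had an uneven spot.

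Chemokines of the CXC family were among the genes farthest below the control. Cxcl1, Cxcl2, Cxcl3 and Cxcl5 are secreted ligands that attract neutrophils, and their genes lie together on chromosome 5. The sequence just before the start of 3 of these genes and of Nfkbia is shown first because all 4 hold the κB consensus, the site that NF-κB binds. Each line gives the 250 bases before the RefSeq start (GRCm38.p6), 5′ to 3′ on the strand of the gene, with matches to the consensus on either strand in capitals.
Cxcl1: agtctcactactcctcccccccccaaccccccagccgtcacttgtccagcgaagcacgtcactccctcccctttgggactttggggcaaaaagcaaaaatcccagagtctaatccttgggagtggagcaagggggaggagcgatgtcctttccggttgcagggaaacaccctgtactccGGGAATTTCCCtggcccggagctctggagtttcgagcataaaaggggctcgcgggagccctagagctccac
Cxcl2: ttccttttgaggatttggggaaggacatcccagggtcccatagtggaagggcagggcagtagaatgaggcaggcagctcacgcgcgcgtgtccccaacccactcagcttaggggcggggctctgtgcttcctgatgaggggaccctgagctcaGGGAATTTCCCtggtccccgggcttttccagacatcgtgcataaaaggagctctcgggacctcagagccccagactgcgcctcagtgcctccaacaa
Cxcl3: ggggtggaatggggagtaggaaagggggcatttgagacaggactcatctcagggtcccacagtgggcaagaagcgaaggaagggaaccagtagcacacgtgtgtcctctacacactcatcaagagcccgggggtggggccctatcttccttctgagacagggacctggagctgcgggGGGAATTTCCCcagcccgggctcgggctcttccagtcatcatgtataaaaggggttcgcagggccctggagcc
Nfkbia: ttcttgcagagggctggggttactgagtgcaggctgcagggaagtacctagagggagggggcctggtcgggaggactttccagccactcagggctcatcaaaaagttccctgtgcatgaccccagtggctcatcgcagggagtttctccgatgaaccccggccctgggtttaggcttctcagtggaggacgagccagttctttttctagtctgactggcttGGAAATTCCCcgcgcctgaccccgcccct

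These windows are chr5:90890995-90891244 on the plus strand for Cxcl1, chr5:90903649-90903898 on the plus strand for Cxcl2, chr5:90785851-90786100 on the plus strand for Cxcl3 and chr12:55492648-55492897 on the minus strand for Nfkbia. Cxcl1, Cxcl2 and Cxcl3 share the same stretch of 11 bases, GGGAATTTCCC, which reads as 2 overlapping matches, 1 on each strand. It begins 71 bases before the start in Cxcl1, 97 bases before it in Cxcl2 and 73 bases before it in Cxcl3. In Nfkbia the match is GGAAATTCCC, 29 bases before the start. The consensus occurred in 7.25% of all 32851 windows of this length and in 10.2% of the 11367 tested genes that had a window. Of the 51 genes with a window among those at least 2-fold lower in every line 7 held it (13.7%), and of 28 such higher genes 2 did (7.14%). Among the NF-κB targets described below 11 of 19 held it (57.9%), but that list was written from genes already known as targets. Of those targets with the control above all 3 variants 8 of 14 held it (57.1%), a share like that of the whole list. Fas and Zc3h12a had windows with no match in these 250 bases. For Cxcl5 and Nos2 no window was printed.

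The Cxcl1 probe (Entrez 14825, mm9 chromosome 5, 91321845 to 91321904) read 12000 in the control, and 793, 1177 and 1185 in L1210-Fbxw11a, Fbxw11c and Fbxw11d, the order used for every triple of values from here on. All 3 variant lines were far below the control and close to each other, at a difference of -3.54 ± 0.25 (SE), or 11.6-fold, with a limma adjusted p of 0.0585. The Cxcl2 probe (Entrez 20310, chromosome 5, 91334534 to 91334593) read 41.6, 50.4 and 46.8 in the variant lines in the same order and 578 in the control, a difference of -3.65 ± 0.27 (adjusted p 0.0585). The 3 Cxcl2 values hardly differed, and the distance of the control was 25.89 times their SD. For Cxcl1 it was 10.65 times, since its lines lay further apart.

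Cxcl5 (chromosome 5, 91190490 to 91190549) read 243, 519 and 428 against 4509 in the control, which was -3.58 ± 0.39 (adjusted p 0.117). Cxcl3 (91216694 to 91216753) read 158, 393 and 418 against 1552, or -2.39 ± 0.52 (adjusted p 0.478). In all of these genes L1210-Fbxw11a was the lowest line, and no variant line overlapped the control. Named genes around them lay nearer to the control. Ppbp, a platelet chemokine between Cxcl5 and Cxcl3, read 119, 296 and 253 against 196 in the control, which lay within the variants' range. On one side of the cluster Rassf6 was at -0.21 and Afp at -0.26, with AU017193 further out at -0.45, and on the other Mthfd2l, Ereg and Areg were at 0.01, -0.10 and 0.23. The transcript E330024J20Rik next to Cxcl2, with weak signals of 22, 18.7 and 17.1 against 30.9, was at -0.69.

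Of the 34 CXC and CC chemokines listed, 18 were measured on all 4 arrays. The control lay above all 3 variants in 9 of the 18 (50%, against 20.6% of all genes) and below them in 2, and 0 passed an adjusted p of 0.05. Cxcl16, a membrane-bound chemokine, read 450, 626 and 573 against 1357, a difference of -1.32 ± 0.22 (adjusted p 0.296). The interferon-inducible Cxcl10 read 4289, 5041 and 4091 against 7652, a difference of -0.78 ± 0.15. Ccl2, which attracts monocytes, split the lines, with 580 in L1210-Fbxw11a and 1103 and 1203 in the other two against 996 in the control. The median difference over the 18 was -0.403, and line by line, in the same order, the median was -0.81, -0.07 and -0.24, against 0.024 over all genes. Without L1210-Fbxw11a it was -0.127, without uneven spots -0.687 and with a signal of at least 100 on every array -0.119. Of 10 measured chemokine receptors 3 were above the control in all lines (30%, against 27.8% of all genes) and 0 below, and Ccr6 read 48.5, 85.1 and 108 against 36.4 (1.07 ± 0.47, adjusted p 1.0). The largest spread among the receptors was in Ccr10, at 209, 30.1 and 14.8 against 74.1, and the spot behind the 209 was uneven (0.41).

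Most measured NF-κB targets lay below the control. Of 40 listed genes 27 were measured. The control was above all 3 variant lines in 19 of the 27 (70.4%, against 20.6% of all genes), below them in 3 and within their range in 5. At an unadjusted p of 0.05, 16 of the 27 were lower and 1 was higher, against 1.85% and 2.61% of all genes, and 0 passed the adjusted threshold. The median difference was -0.623, and by line, in the same order, it was -0.78, -0.60 and -0.49. Cxcl1, Cxcl2, Cxcl5, Cxcl10, Ccl2 and Ccl5 are on both this list and that of the chemokines, and Nfkbia, Nfkbie, Nfkb2, Relb and Tnfaip3 are on both this list and that of the NF-κB family.

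Nos2, the inducible nitric oxide synthase (chromosome 11, 78773567 to 78773626), read 639, 670 and 581 against 2737 in the control. The lines were tightly grouped, and the difference was -2.12 ± 0.16 (limma adjusted p 0.0585). Fas, the death receptor, read 186, 226 and 172 against 780, or -2.01 ± 0.23 (adjusted p 0.117). Ptgs2, the inducible cyclooxygenase, read 2818, 2900 and 3006 against 5155 (-0.83 ± 0.13, adjusted p 0.261). Vcam1, an adhesion molecule, read 30.1, 26.7 and 24.4 against 58.8 (-1.12 ± 0.34, adjusted p 0.968), among the weakest signals tested. For each of these genes every variant line was below the control. Macrophage and monocyte markers, described at the end, were also below the control in every line in 5 of 9 measured genes, and granulocyte and mast cell markers in 3 of 8, and their part in the lower chemokines and Nos2 was not tested. Other targets did not stand apart. Tnf read 32.3, 29.4 and 22.2 against 29.3, Tnfaip3 (A20, a brake on NF-κB) 1315, 1440 and 1343 against 1409, and Irf1 8952, 9883 and 10960 against 10120, so the control lay within the variants' range in all of these. Fasl, the ligand of Fas, ran the other way at 1145, 1456 and 1884 against 517, a difference of 1.5 ± 0.27 (adjusted p 0.319). Ccnd1, the G1 cyclin D1, was slightly above the control in every line, at 15000, 13820 and 16780 against 12360 (0.29 ± 0.14, adjusted p 1.0).

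Within the NF-κB and IκB family 14 of 15 genes were measured. The control was above all variants in 9 (64.3%, against 20.6% of all genes) and below them in 2 (14.3%, against 27.8%). The inhibitor Nfkbia read 20620, 24510 and 26520 against 43030 (-0.86 ± 0.16, adjusted p 0.339). Nfkbie, also an inhibitor, read 932, 1055 and 1228 against 1729 (-0.70 ± 0.19). The variant lines were ordered alike in both, with L1210-Fbxw11a lowest. Relb, Nfkb2, Bcl3 and Nfkbiz had differences of -0.62, -0.53, -0.63 and -0.63, while the subunit Rela differed by only -0.13 and the kinases Chuk and Ikbkb by -0.10 and -0.01. Map3k14, the kinase of the noncanonical pathway, was higher in every line (0.39 ± 0.20, adjusted p 1.0). The median over the 14 was -0.359, against 0.024 over all genes.

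**Figure D2:**
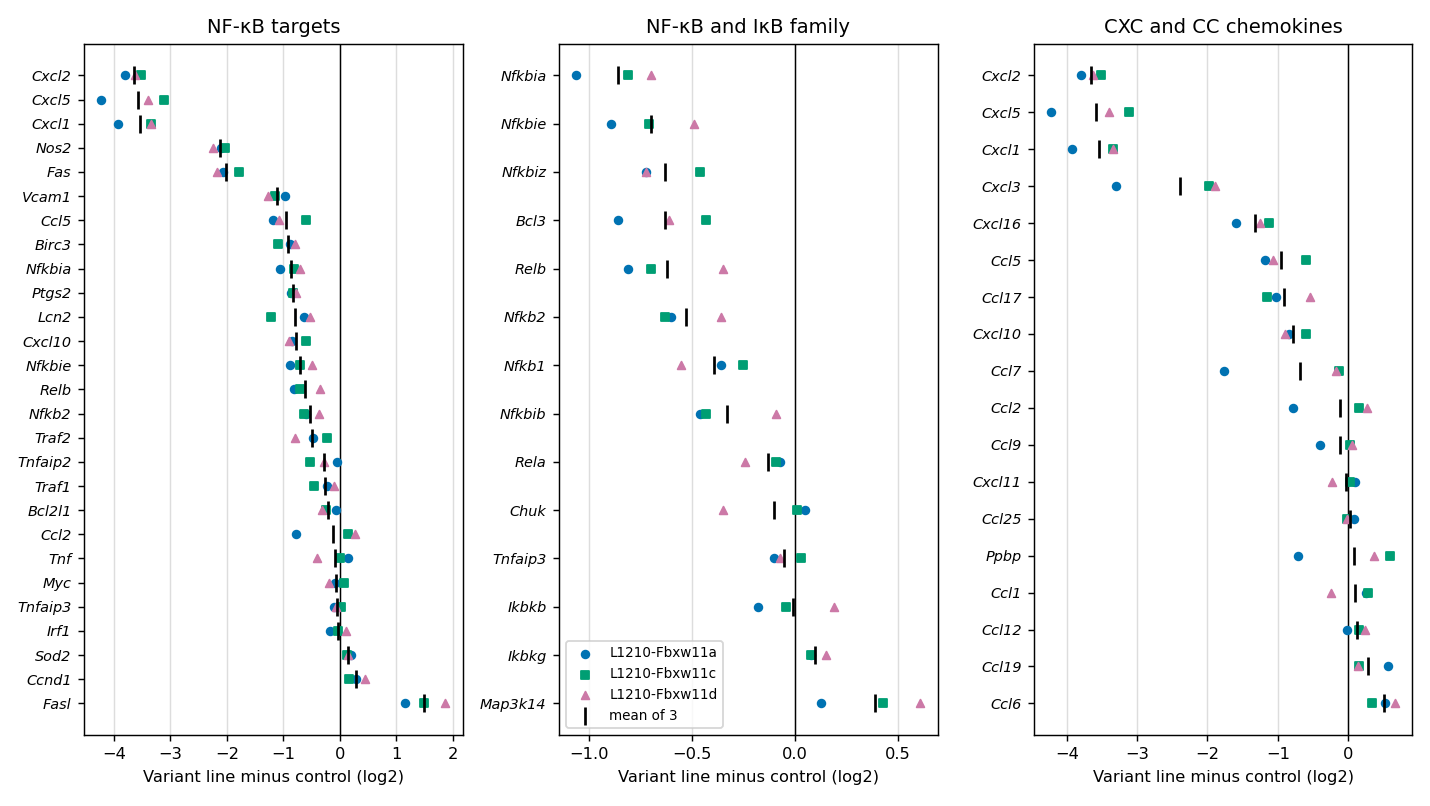
Difference of each variant line from the control on the log2 scale (horizontal axis) for each measured gene of 3 lists (vertical axis), with coloured points for the 3 lines and a bar for their mean. In 19 of the 27 NF-κB targets all 3 lines sit left of 0, from a mean of -3.65 in Cxcl2, and Fasl sits at 1.5 on the right.

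Of the other leading genes on the lower side, 4 named here had even control spots. Fam213a, a peroxiredoxin-like protein, read 2314, 1952 and 2358 against 7875 in the control (-1.84 ± 0.16, adjusted p 0.0808). Zc3h12a, a ribonuclease that degrades inflammatory transcripts, read 21.9, 27.6 and 20.9 against 165 (-2.83 ± 0.34, adjusted p 0.137). Its variant signals were weak, and its L1210-Fbxw11d spot was uneven, with a pixel SD of 0.34 of the mean. U90926 read 349, 411 and 513 against 2219 (-2.40 ± 0.24, adjusted p 0.106). The pixel SDs of their control spots were 0.20, 0.21 and 0.17 of the mean. Cdhr3, a cadherin-related protein, read 84.0, 71.8 and 75.2 against 309, from a spot with a pixel SD of 0.25 of the mean. That spot lay in rows 1 to 96 of the array.

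A second set came from uneven control spots and rests on those spots alone. Sema4f, a semaphorin, read 23.2, 30.1 and 28.5 against 326 (-3.59 ± 0.32, adjusted p 0.0856), but its control spot had a pixel SD of 0.55 of the mean. Lor, the skin protein loricrin, had 0.41, Ccdc169 0.64, Sh3bgr 0.49 and the gut hormone gene Cck 0.64. Further probes of Ccdc169 and Sh3bgr gave differences of -0.42 and -0.18, against -2.68 and -3.04 from the probes with uneven spots. Of the other leading genes by size, Bcl2a1d, a survival factor of the Bcl2 family with near-identical copies that the probe may also read, was at 87.0, 42.2 and 30.0 against 507 (-3.40 ± 0.56, adjusted p 0.295). Mptx1, a mucosal pentraxin, and Lilrb4, an inhibitory leukocyte receptor, were lower by -3.14 and -2.94, with control spots at 0.17 and 0.23. The Mptx1 spot lay in rows 1 to 96 of the array.

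At 2-fold in every line fewer genes were higher than lower (34 against 75, or 34 against 43 without uneven spots), although more genes were higher at an unadjusted p of 0.05 (424 against 301). By probes that threshold gave 648 higher and 631 lower. Together these probes were 3.87% of those tested, below the share that a p of 0.05 passes with no effect. The control spots of the 34 were even. The predicted gene Gm2085 led the ranking, at 256, 223 and 286 against 45.5 (2.48 ± 0.25, adjusted p 0.106). Me3, the mitochondrial NADP-dependent malic enzyme (chromosome 7, 97000413 to 97000472), read 249, 233 and 281 against 63.2 in the control, a difference of 2.00 ± 0.23 (adjusted p 0.117). Its other probe gave 1.48 ± 0.26. The related enzymes Me1 and Me2 differed by 0.09 and 0.31. Cyp11a1, which cleaves the side chain of cholesterol in the first step of steroid synthesis, read 347, 655 and 551 against 95.2 (2.39 ± 0.35, adjusted p 0.248), with the lines further apart. Prss23, a secreted serine protease gene on chromosome 7 near Me3, read 366, 762 and 819 against 126 (2.28 ± 0.44, adjusted p 0.373). Prss23os, between this pair, read 41.7, 89.4 and 42.1 against 38.7 (0.48), so that L1210-Fbxw11c was the line furthest above the control. The genes further out differed by 0.00 for Tmem135, 0.09 for Fzd4, 0.20 for l7Rn6, 0.17 for Eed and -0.01 for Picalm.

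Of the genes of the extracellular matrix and membrane, Col1a2, a collagen I chain, read 2419, 3826 and 3702 against 888 (1.87 ± 0.27, adjusted p 0.240), and Mfap5, a microfibril protein, 2137, 2140 and 1850 against 991 (1.04 ± 0.16, adjusted p 0.254). Pla2g2e, a secreted phospholipase A2, read 3142, 2702 and 2797 against 1239 (1.21 ± 0.15, adjusted p 0.137). Anxa8, an annexin, read 13760, 11570 and 10570 against 4962 (1.26 ± 0.16, adjusted p 0.171), and a further probe gave 1.22. The keratin Krt27, the kelch protein Klhl30, the olfactory receptor gene Olfr441, Dcdc2c and Ccdc150 were higher by 1.91, 2.06, 1.56, 1.36 and 1.85. In every gene of this paragraph the control was below all 3 lines. A further probe of Dcdc2c lay on the other side, at -0.79. The predicted genes Gm15328 and Gm525 made up the rest of the ranked genes on this side, as Gm10732 did on the lower side.

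**Figure D3:**
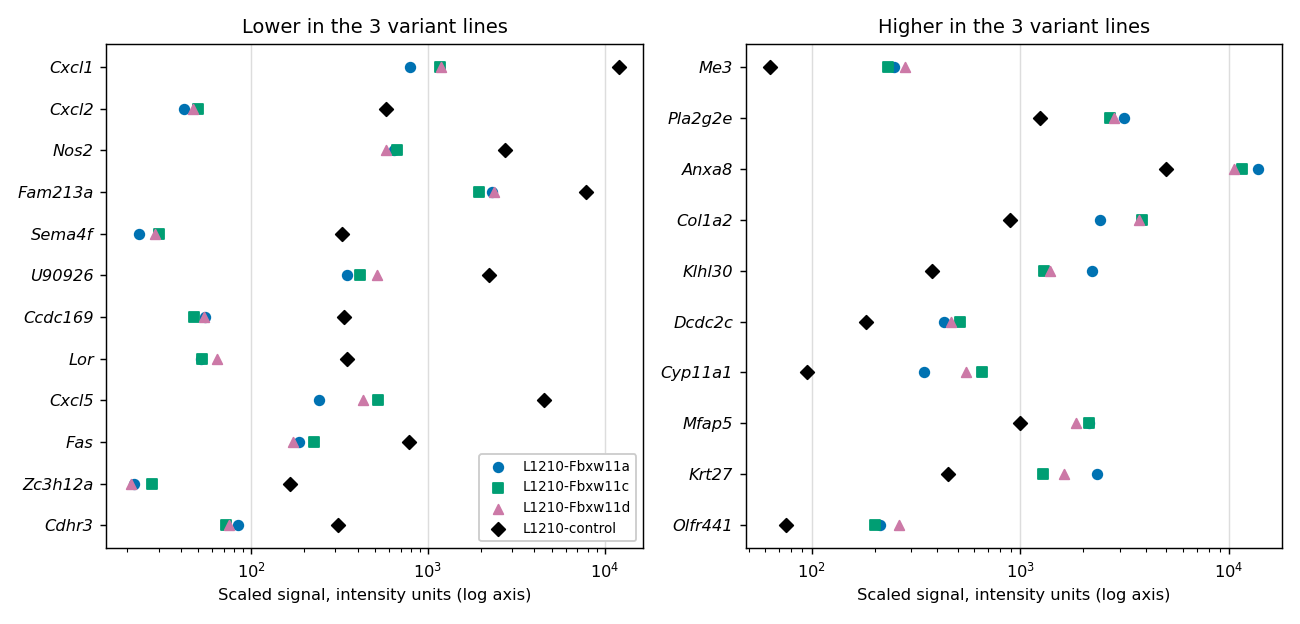
Scaled signal on each array (horizontal axis, log scale) for the named genes with the largest limma statistic in either direction (vertical axis), with 1 marker per line. The control diamond lies right of all variant markers in the left panel, up to 12000 for Cxcl1, and left of them in the right panel.

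The spread among the variants differed widely from gene to gene. In the 75 lower genes the SD of the 3 lines ran from 0.03 to 1.04 with a median of 0.28, and in the 34 higher genes from 0.03 to 0.67 with a median of 0.31. L1210-Fbxw11d was the farthest line from the control in 33 of the lower genes, L1210-Fbxw11a in 24 and L1210-Fbxw11c in 18. The L1210-Fbxw11d array was also the brighter one on slide 2, and the part of slide and scaling in this order was not tested. Among the higher genes L1210-Fbxw11a was farthest in 16, and the other two in 9 each. The SD depended on signal, with a median of 0.294 for genes with the weakest signals, at 16.2 to 117, and 0.105 for those with the strongest. Most of the lower genes, 55 of 75, were in that weakest group, as were 15 of the 34 higher genes.

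The plain ratio of the difference to the SD of the 3 lines gave another order, since it put first the genes whose lines lay closest together. The 12 genes on each side with the largest ratio had an SD of 0.03 or less, and none of them was among the 12 on that side with the largest moderated statistic. On the lower side Ralgapa2, a subunit of a GTPase-activating complex, came first, at 745, 744 and 745 against 836, a difference of only -0.17 (adjusted p 1.0). The ratio then put forward Zfp36, which destabilises inflammatory mRNAs, at 26.9, 27.5 and 26.5 against 78.2 (-1.53 ± 0.32, adjusted p 0.443), and Spsb4, an adaptor of a ubiquitin ligase, at 58.8, 59.9 and 57.8 against 155 (-1.39 ± 0.27, adjusted p 0.370). Both had uneven control spots (0.34 and 0.39). On the higher side Ube2f, an enzyme of the NEDD8 pathway, came first at 0.21, and of the 12 only Hba-a1, an α-globin gene, differed by 2-fold or more, at 171, 165 and 170 against 78.2 (1.11 ± 0.23, adjusted p 0.418). By this ratio Cxcl1 ranked 99th, Cxcl5 227th and Anxa8 278th on their sides.

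**Figure D4:**
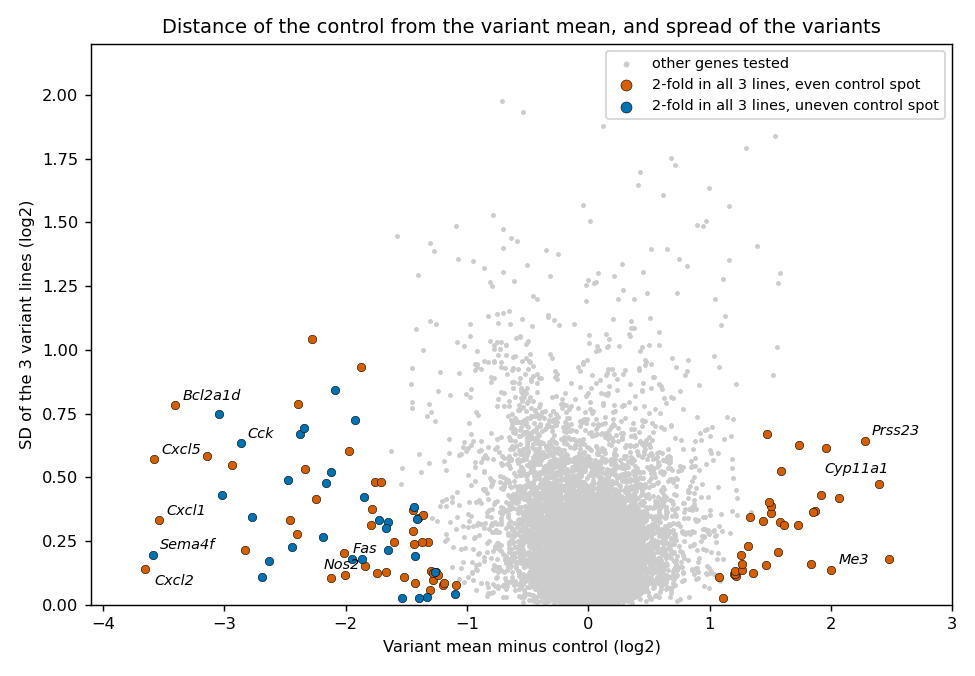
Variant mean minus control (horizontal axis, log2) against the SD of the 3 variant lines (vertical axis, log2) for every gene tested, with genes at least 2-fold from the control in all 3 lines in colour by the evenness of their control spot. Cxcl1, Cxcl2 and Nos2 combine a distance beyond -2 with an SD of 0.33 or less and an even spot, and blue points occur only among the lower genes.

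Fbxw11 itself showed no clear difference. Its brighter probe (chromosome 11, 32646601 to 32646660) read 16340, 15900 and 13430 against 13150 in the control, which is 0.21 ± 0.14 (limma adjusted p 1.0). The second probe gave 0.20 ± 0.11. The probes lie close together on mm9, and whether the transgene carried their sequence is not given in the sources used here, so the arrays hold no check of the labels through this gene. Of 12 genes of the SCF ligase core and β-TrCP, Fbxw11 included, 7 were above the control in every line (58.3%, against 27.8% of all genes) and 1 below (8.33%, against 20.6%). Fbxw11 was 1 of the 7, with Skp2 and Fbxw7, F-box proteins of cell cycle regulators, at 0.29 and 0.27. Btrc, the close relative of Fbxw11, differed by 0.01.

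β-catenin/TCF targets were divided by side. Of 18 measured, the control was below all variants in 8 (44.4%, against 27.8% of all genes) and above them in 7 (38.9%, against 20.6%), and 0 passed the adjusted threshold. At an unadjusted p of 0.05, 3 were higher (Lgr5, Wisp1 and Id2) and 0 lower, against 2.61% and 1.85% of all genes. Lgr5, a stem cell receptor, read 621, 444 and 377 against 207 (1.19 ± 0.29, adjusted p 0.663). Wisp1, a secreted matricellular protein, read 1114, 845 and 925 against 455 (1.07 ± 0.20, adjusted p 0.362), and its other probe gave 0.96. The transcriptional inhibitor Id2 was at 0.77. Mmp7 and Vegfa were lower (-0.72 and -0.34), and Myc was at -0.07 with the control within the range. Of 24 Wnt ligands and receptors measured, 10 were above the control in every line (41.7%) and 2 below (8.33%). Wnt10b read 169, 215 and 200 against 89.5 (1.11 ± 0.25, adjusted p 0.495) and Wnt6 was at 0.75 ± 0.20.

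Genes of cholesterol synthesis and uptake were mostly above the control by small amounts. The control was below all variants in 15 of 23 (65.2%, against 27.8% of all genes) and above them in 1, with a median difference of 0.204 and 0 past the adjusted threshold. Hmgcs1, an early enzyme of the pathway, read 21310, 24570 and 25390 against 17370 (0.45 ± 0.13, adjusted p 0.937). Sqle, which makes squalene epoxide, was at 0.39 ± 0.11 and Hsd17b7, a later enzyme, at 0.49 ± 0.17, with further probes at 0.37 and, with the control within the variants' range, at 0.07. Among 15 measured enzymes that produce NADPH or start steroid synthesis 9 were above the control in every line (60%) and 2 below (13.3%).

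For the remaining lists the counts read against the same 27.8% of all genes above the control in every line and 20.6% below. Of 26 measured β-TrCP substrates 11 were below the control in every line (42.3%) and 7 above (26.9%), and 5 of the 11 below (Nfkbia, Nfkbib, Nfkbie, Nfkb1 and Nfkb2) were already counted in the NF-κB and IκB family. The 11 also include Per2, a clock protein, which read 98.1, 26.6 and 53.9 against 98.1, so that L1210-Fbxw11a was below the control by less than the rounding. Of 21 G1 cyclins, kinases and inhibitors 9 were above (42.9%) and 4 below (19%), with the inhibitors Cdkn2c and Cdkn2d at 0.39 and 0.34. Of 36 S, G2 and M phase genes 11 were above (30.6%) and 12 below (33.3%). The largest differences were in Ccnb1, the mitotic cyclin B1 (0.45), and in Cdt1, which licenses replication origins (-0.38). The mitotic kinase Plk1 was at 0.27. Of the genes of nucleotide supply, Tyms was at -0.27 and Rrm2 at 0.25, and none of these passed the adjusted threshold. In 2 further probes of Ccnb1 the control lay within the variants' range. Of 21 TNF ligands and receptors 4 were above (19%) and 7 below (33.3%), with Tnfsf15 at -1.52 ± 0.25, from an even spot in rows 1 to 96, and Tnfsf18 at 1.16 ± 0.28. Of 18 interferon-stimulated genes 5 were above (27.8%) and 2 below (11.1%). Oasl1 was at 1.06 ± 0.22 and Oas1a at -1.08 ± 0.71, the latter from an uneven control spot (0.31). Of 24 immediate early and AP-1 genes 7 were above (29.2%) and 9 below (37.5%), or 1 above and 9 below of the 17 that lay outside rows 1 to 96 of the array, with Ier3 at -0.96 ± 0.15 and Dusp2 at 0.77 ± 0.18. Of 16 cytokines and colony-stimulating factors 4 were above (25%) and 5 below (31.2%), with Csf1 at -0.49 and Il18 at 0.57.

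**Figure D5:**
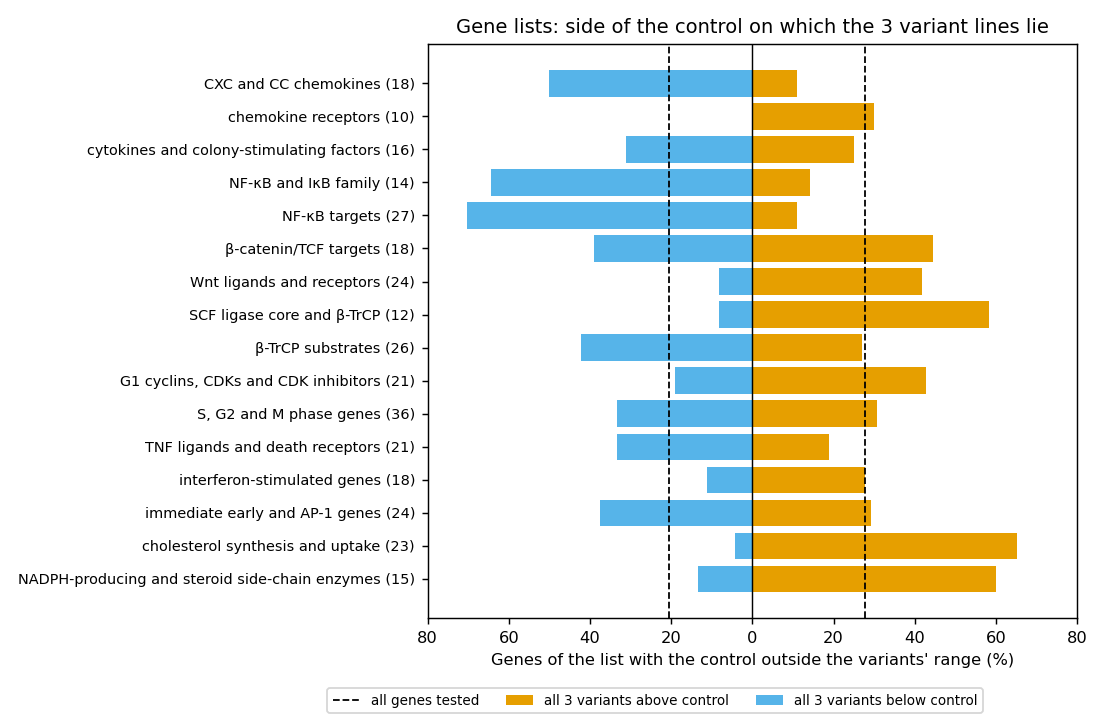
Percent of the measured genes of each list (count in brackets) for which all 3 variant lines lay above (right) or below (left) the control, with dashed lines at the shares of all genes tested, 27.8% and 20.6%. NF-κB targets reach 70.4% on the left and cholesterol genes 65.2% on the right.

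Markers of blood and stromal cells were measured beside these results. Of 14 B lineage markers 7 were detected well above background on every array and 6 on none, among them Cd79b, Ms4a1, Ebf1, Rag1 and Rag2. Of 17 T lineage markers 11 were on all arrays, with Cd3e at 1293 to 1599 and Cd3d, Cd3g and Thy1 on none. Of 12 macrophage and monocyte markers 9 were on all arrays and 3 (Lyz2, Fcgr1 and Msr1) on none. The control was above all variants in 5 of these 9 (55.6%, against 20.6% of all genes) and below them in 2. Cd68, a lysosomal protein of macrophages, differed by -0.49 ± 0.15, Mrc1, the mannose receptor, by -0.47, the endotoxin co-receptor Cd14 by -0.44 ± 0.18 and Csf1r, the receptor of the growth factor Csf1, by -0.41 ± 0.42, none past the adjusted threshold. Csf1r read 1097, 1032 and 509 against 1104, so that only L1210-Fbxw11d, the array on slide 2, was far below the control. Emr1 (F4/80), Lyz1, a lysozyme, and Ly6c1, a monocyte surface protein, were on the other side of 0 at 0.46, 0.44 and 0.20, and the median over the list was -0.087. The summed signal of the macrophage list was 195826, 160171 and 183377 in the variants and 160454 in the control, but 1 gene, Ly6c1, made up most of it, with 183300, 148900 and 171400 against 145700. The summed signal of the B list was 23795, 23066 and 21613 against 18968. Here too 1 gene, Blnk, made up most of it, with 23140, 22460 and 21080 against 18270, and the median difference over the B list was -0.039. Of 12 stromal markers 6 were on all arrays, Pdgfrb, Postn and Thy1 on none, and Col1a2 was the one that differed by 2-fold or more. Granulocyte and mast cell markers were on all arrays for 8 of 13, of which 3 were below the control in every line (37.5%, against 20.6% of all genes) and 1 above, with a median of -0.21. S100a9, a calcium-binding protein of neutrophils, was at -0.76 and Cebpe, a transcription factor of granulocytes, at 0.93. Cd28, a T cell costimulatory receptor, read 85.5, 85.8 and 74.5 against 192 (-1.23 ± 0.26, adjusted p 0.429), with a pixel SD of 0.30 of the mean on the control spot. The part of other cell types in the differences was not tested, and fewer cells of a type cannot be told apart from less RNA per cell in such bulk samples.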

How the data were processed

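Total RNA of each line, extracted with Trizol, was hybridised to 1 Agilent 1-colour mouse array. The authors deposited scanner output with the intensity of each spot, background-subtracted by Agilent Feature Extraction, which the file headers give as version 10.7.1.1 and the submitters' processing notes as 9.1. The authors also deposited normalized log2 values, which were used as an alternative. The number of arrays limits the precision.

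Flagged outlier spots and control spots were left out. The log2 of the processed signal was reduced by the 75th percentile of each array, and spots of a probe were averaged. Probes well above background on all 4 arrays in at least 0.5 of their spots entered limma 3.58.1 in R 4.3.3 (lmFit and eBayes with a trend, two-sided, Benjamini-Hochberg adjustment over all 33071 probes). A gene was read from its probe with the highest mean signal. In a test on simulated data for this comparison, 131 of 200 probes with a log2 change of 2 were called and 0 of 200 with a change of 1, along with 11 unchanged probes.

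Named genes were the 12 on each side with the largest moderated statistic, the 10 on each side with the largest difference, Fbxw11, and members of the gene lists that differed by 2-fold or more with the control outside the variants' range, with at least 2 members a list, those with the largest differences first, where fewer did. Other list members and neighbours are named for context and were chosen after their values were seen. The comparison, the lists and their genes were chosen with earlier results of these data known. Alternatives covered scaling, background correction, filters, moderation, slide, fold threshold, each variant line left out, and 2 settings on spots chosen after seeing the data. Promoter sequences came from RefSeq (GRCm38.p6) and were matched by symbol, and probe positions are those of the array files (mm9). Some members of the gene lists are counted but not reported by name here.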

Additional observations from a re-analysis of the deposited data

How the results depend on the processing

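No paired analysis was possible because the control group held 1 array and the labels carry no replicate numbers. The cause of the shifts below was not tested, except that settings with fewer or more probes, samples or a different threshold change the counts by construction. At an adjusted p of 0.05 (0 probes higher, 0 lower), limma gave 4 lower with quantile normalization, 9 higher and 23 lower with median centring, 1 lower with normexp, 4 lower with the authors' normalized values, 7 higher and 94 lower with no filter on dim probes, 2 lower with a signal of at least 100, 3 lower without uneven spots, 5 lower outside rows 1 to 96, and 5 lower at an adjusted p of 0.10. Leaving out 1 line gave 0 to 13 higher and 0 to 16 lower, with 13 and 16 without L1210-Fbxw11a, 5 and 11 without L1210-Fbxw11c and 0 without L1210-Fbxw11d. Probes with the control above all lines (8026) were 4523 with median centring, which moved the median difference of all genes by 0.09, 18516 with no filter, 4796 at a signal of at least 100, and 10322 to 11593 without 1 line. Those with the control below (7884) were 9909 to 11128 without 1 line. Genes 2-fold higher in every line (34) were 11 with normexp, 149 with no filter, 11 at a signal of at least 100, 133 at 1.5-fold, 5 at 3-fold, and 50 to 61 without 1 line, the most without L1210-Fbxw11a. Genes 2-fold lower (75) were 37 with normexp, 424 with no filter, 15 at a signal of at least 100, 43 without uneven spots, 32 outside rows 1 to 96, 171 at 1.5-fold, 32 at 3-fold, and 90 to 128 without 1 line, again the most without L1210-Fbxw11a. The median of the NF-κB and IκB family (-0.359) was -0.265 with median centring, -0.32 with normexp, -0.458 outside rows 1 to 96 and -0.378 to -0.332 without 1 line. Without 1 line the median was -0.719 to -0.527 for NF-κB targets, -0.517 to -0.127 for chemokines and 0.194 to 0.283 for cholesterol genes. The chemokine median was -0.679 over the mean of each gene's probes and -0.255 with normexp. Ccr10 (-0.71) ran from -1.81 without L1210-Fbxw11a to 0.10 without L1210-Fbxw11d. Across alternatives the adjusted p of Cxcl1 ran from 0.000228 to 0.964, that of Cxcl2 from 0.00734 to 0.964 and that of Nos2 from 0.00949 to 0.964. With no moderation none of the 12 leading genes on either side kept its place.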

Other observations

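Several genes at least 2-fold from the control in every line belonged to no gene list and were picked with their values known. All had an even control spot, but Slc7a11 and Edn1 had spots in rows 1 to 96 of the array. Serpina3g, a serine protease inhibitor, read 79.0, 64.1 and 102 in L1210-Fbxw11a, Fbxw11c and Fbxw11d and 441 in the control (-2.46 ± 0.31, limma adjusted p 0.162). Slc7a11, the cystine transporter, read 46.8, 26.3 and 36.0 against 168 (-2.24 ± 0.39, adjusted p 0.312). Casp4, an inflammatory caspase, read 160, 147 and 140 against 360 (-1.28 ± 0.22, adjusted p 0.312). Map3k8, a kinase upstream of ERK in inflammatory signalling, was at -1.44 ± 0.29, and Edn1, the vasoconstrictor endothelin, at -1.87 ± 0.63 with L1210-Fbxw11a farthest below. On the higher side P2rx7, an ATP-gated channel, read 79.7, 109 and 99.3 against 38.2 (1.31 ± 0.30, adjusted p 0.550), and the membrane protein gene Emp2 read 182, 157 and 158 against 72 (1.20 ± 0.24, adjusted p 0.391). Pax8, a transcription factor, read 388, 442 and 768 against 169 (1.59, adjusted p 0.582). None of them passed an adjusted p of 0.05.

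Some probes were well above background in only 1 of the groups and so entered no test. There were 1000 such probes measured on all 3 variant arrays and not on the control, of which 536 had a gene symbol and 64 had an uneven spot on the control array. There were 451 measured on the control and on no variant array, of which 252 had a symbol, and 306 of the 451 had an uneven control spot. Among the latter were Ifnb1, the gene of interferon β, at 10.1, 4.04 and 2.71 against 410, and a probe of Kpna7 at 6.77, 13.6 and 9.44 against 666, with control spots whose pixel SDs were 0.58 and 0.55 of the mean. No fold is given for them, since the variant values were not well above background.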
